A study of Mus musculus with 36 samples.

Results

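*Ccl19*, the copies of its sequence that were counted as genes of their own, and the receptors of the chemokine it encodes were followed through the RNA-sequencing (RNA-seq) of epididymal white adipose tissue (eWAT). A gene was taken when its Ensembl ID in the table mapped to 1 of 5 symbols: the ligand *Ccl19*, the copies *Gm2564* and *Ccl19-ps3*, the signalling receptor *Ccr7* and the scavenging receptor *Ackr4*. All 5 were found among the 24750 genes of the table. Rows were matched by gene name and not by value, but the 5 symbols were chosen with earlier results of these data known.

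The 36 libraries were from male C57BL/6 mice, 3 in each of 12 groups that combined genotype, diet and ligature. WT (wild-type) mice were bred apart from Adipoq-CCL19-KI (CCL19-KI) mice, a homozygous line in which murine *Ccl19* had been placed in the *Adipoq* locus by CRISPR/Cas9 with *Adipoq* itself left intact, so that the added ligand gene stands under an adipocyte promoter. According to the labels, all mice ate a normal diet (ND), a 40% HFD (high-fat diet) or a 60% HFD for 10 weeks. The labels name a ligature of 2 weeks, placed to induce periodontitis, for 18 of them. Per the methods, the second upper molar was ligatured on each side. The mice were 14 weeks old when ligatures were placed. No ligature is named for the other 18, although the series' design text mentions ligatures for each group, and here the labels decided. The methods, which describe the ligatured mice, state that lymph nodes were taken out of the tissue before RNA extraction. Since RNA came from whole tissue, fewer cells of a type and less RNA per cell cannot be told apart in any value below.

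CCL19 is a chemokine made mainly by stromal cells of lymphoid organs, where it guides T cells and mature dendritic cells through CCR7, a G protein-coupled receptor on their surface. CCL21 is the other ligand of CCR7. ACKR4, an atypical receptor found on stromal and lymphatic cells, binds the same chemokines without G protein signalling and removes them, and thus shapes their gradients. Neither ligand belongs to the usual products of adipocytes, whereas adiponectin, the product of *Adipoq*, is among their most abundant secreted proteins.

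The sequences of the ligand gene and its copies are shown because they set how reads could be assigned to each gene. Positions are on GRCm38 with GENCODE M21, and transcript sequences were read from the same release. *Ccl19* (ENSMUSG00000071005) spans chr4:42754525-42756577 on the minus strand. Its coding sequence, bases 214 to 540 of its transcript, lies in the exons of chr4:42754730-42756330 and is 327 bases long. The first 150 bases (chr4:42755212-42756330, minus strand, exons joined) are printed with the start codon in capitals, and the copies share all but 1 of them or start after that codon:
Ccl19 coding sequence, first 150 bases: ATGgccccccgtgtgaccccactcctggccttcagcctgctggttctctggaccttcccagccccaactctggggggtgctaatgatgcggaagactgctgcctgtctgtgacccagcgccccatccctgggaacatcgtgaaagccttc

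*Gm2564* (ENSMUSG00000091938) spans chr4:42629719-42631714 on the plus strand and is annotated as protein-coding in GENCODE and as a transcribed pseudogene in RefSeq. Its transcript of 707 bases aligned to bases 39 to 745 of that of *Ccl19* with 699 identical bases (98.9%) and 0 gaps. With positions counted from 1 at the 5′ end of the *Ccl19* transcript, 4 of the 8 substitutions, C82T, A110C, T206C and A207G, lie before the coding sequence, and 3, A694G, A717T and C732T, lie after it. The remaining substitution, T215C, is in the start codon and is the only difference from the coding sequence, in which 326 of 327 bases are identical. *Ccl19-ps3* (ENSMUSG00000094162), an unprocessed pseudogene at chr4:42132559-42134171 on the plus strand, is 324 bases long, and all 324 are identical to bases 217 to 540 of the *Ccl19* transcript, the coding sequence after its start codon. The windows around the start codon are given for *Ccl19* (chr4:42756313-42756342, minus strand) and *Gm2564* (chr4:42629882-42629911, plus strand), with the substituted bases in capitals, and next to them the first 15 bases of *Ccl19-ps3* (chr4:42132559-42132573, plus strand), in which no base differs:
Ccl19: agatTAtctgccaTggccccccgtgtgacc
Gm2564: agatCGtctgccaCggccccccgtgtgacc
Ccl19-ps3: gccccccgtgtgacc

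Of the 677 words of 31 bases in *Gm2564*, 526 also occur in *Ccl19*, and of the 294 words in *Ccl19-ps3*, all 294 do. The reads were sequenced at a length above 31 bases, so these counts do not give the share of ambiguous reads. A read that lies wholly within a shared stretch fits more than 1 gene. The level of each of the 3 genes is therefore uncertain, and their sum is given beside them. The receptor genes have no such copies among the members. *Ccr7* (ENSMUSG00000037944) lies at chr11:99144196-99155077 and *Ackr4* (ENSMUSG00000079355) at chr9:104084157-104126933, both on the minus strand.

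The values are normalized CPM (read counts relative to library size, scaled between libraries by the authors), from which reads per gene could be recovered because, in each library, 100% of the values came out as whole reads. The libraries held 11962228 to 21581595 reads (median 15573273), and 1 read was worth 0.0472 to 0.0834 normalized CPM. For a gene without reads, the upper limit that 3 reads set was 0.142 to 0.250 normalized CPM, depending on the library, and this limit covers counting error only. By chi-square of the reads, no pair of the 36 libraries was alike (at least 16.9 per degree of freedom). Summed over the marker lists, the libraries held 128 to 40787 normalized CPM of hepatocyte genes and 0 to 9553 of epididymis genes, beside 5802 to 30616 of adipocyte genes. The part of these other tissues in any result was not tested.

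The genotype labels were checked against the ligand genes in each library, and 2 unligatured libraries went against them. The library labelled WT, ND, replicate 2 had 19.2 normalized CPM of *Ccl19*, 41.9 of *Gm2564* (753 reads) and 6.51 of *Ccl19-ps3* (117 reads). Except for 2 reads of *Gm2564* in 1 mouse, none of the other 17 WT libraries had a read of either copy. The library labelled CCL19-KI, 60% HFD, replicate 3 had 0.687 normalized CPM of *Ccl19* (14 reads) and none of either copy, whereas *Gm2564* had at least 205 reads in the other 17 CCL19-KI libraries. No library was relabelled. Results that rest on these libraries are given as labelled and without them. As the ligand genes were used to single them out, the ligand values without both are a description, whereas the receptor values did not enter that choice.

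In unligatured mice, *Ccl19* was higher in most mice labelled CCL19-KI than in those labelled WT. In WT mice, it was 4.51, 19.2 and 1.15 normalized CPM on an ND, 0.826, 2.96 and 2.96 on a 40% HFD, and 1.21, 1.42 and 1.08 on a 60% HFD (replicates 1 to 3). In CCL19-KI mice, it was 16.4, 16.0 and 11.8 on an ND, 27.5, 14.4 and 18.6 on a 40% HFD, and 5.57, 11.8 and 0.687 on a 60% HFD. Thus, the genotypes did not overlap on a 40% HFD, and under the other diets they overlapped by the libraries against their label. How many of all genes were separated by genotype on a 40% HFD was not counted. WT eWAT was not free of *Ccl19*, with 11 to 83 reads in the other 8 WT mice (2.01 ± 1.31 normalized CPM, SD, n = 8), against 15.3 ± 6.34 in the other 8 CCL19-KI mice.

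*Gm2564* separated the genotypes more widely. It was 0 in every unligatured WT mouse but the library labelled WT, ND, replicate 2. In CCL19-KI mice, it was 37.7, 35.2 and 15.3 normalized CPM on an ND, 57.6, 30.8 and 43.8 on a 40% HFD, and 11.6, 15.0 and 0 on a 60% HFD. Against the limit of 3 reads per WT library, this was at least 205-fold higher on a 40% HFD and at least 39.1-fold on a 60% HFD (58.6-fold without the library against its label). On an ND, it was at least 188-fold higher than in the 2 WT mice left without the library against its label. The folds of *Gm2564* hold only for the reads as assigned, since the limit does not cover how reads shared with *Ccl19* were divided. *Ccl19-ps3* was 8.12, 1.03 and 6.01 normalized CPM in CCL19-KI mice on an ND, 12.0, 15.0 and 12.5 on a 40% HFD, and 0, 6.27 and 0 on a 60% HFD. It was thus absent from CCL19-KI replicate 1 on a 60% HFD, a mouse in which *Ccl19* and *Gm2564* were both present.

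In ligatured mice, the labels and the ligand genes matched in all 18 libraries. *Ccl19* was 0.507 to 2.79 normalized CPM in WT mice (median 1.07) and 11.8 to 34.6 in CCL19-KI mice (median 21.1). *Gm2564* had 0.160 normalized CPM (2 reads) in 1 WT mouse fed a 40% HFD and 0 in the other 8, and 28.2 to 108 in CCL19-KI mice (median 54.2). *Ccl19-ps3* was 0 in all 9 WT mice and 1.16 to 24.6 in CCL19-KI mice (median 3.06), so that for each of the 3 genes the genotypes did not overlap under any diet. Within 1 diet, such a separation of 3 mice from 3 others has p = 0.1 in the exact permutation test. The share of all genes separated in this way was not counted. Against the limit of 3 reads, *Ccl19-ps3* was at least 13.8-fold higher on an ND, at least 47.7-fold on a 40% HFD and at least 29.6-fold on a 60% HFD. These folds hold only for the reads as assigned, since the limit does not cover how reads shared with *Ccl19* were divided. Of the *Ccl19-ps3* values, CCL19-KI replicate 1 on a 40% HFD (24.6) and replicate 3 on a 60% HFD (14.5) stood above the other 7, at 1.16 to 4.02.

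**Figure D1:**
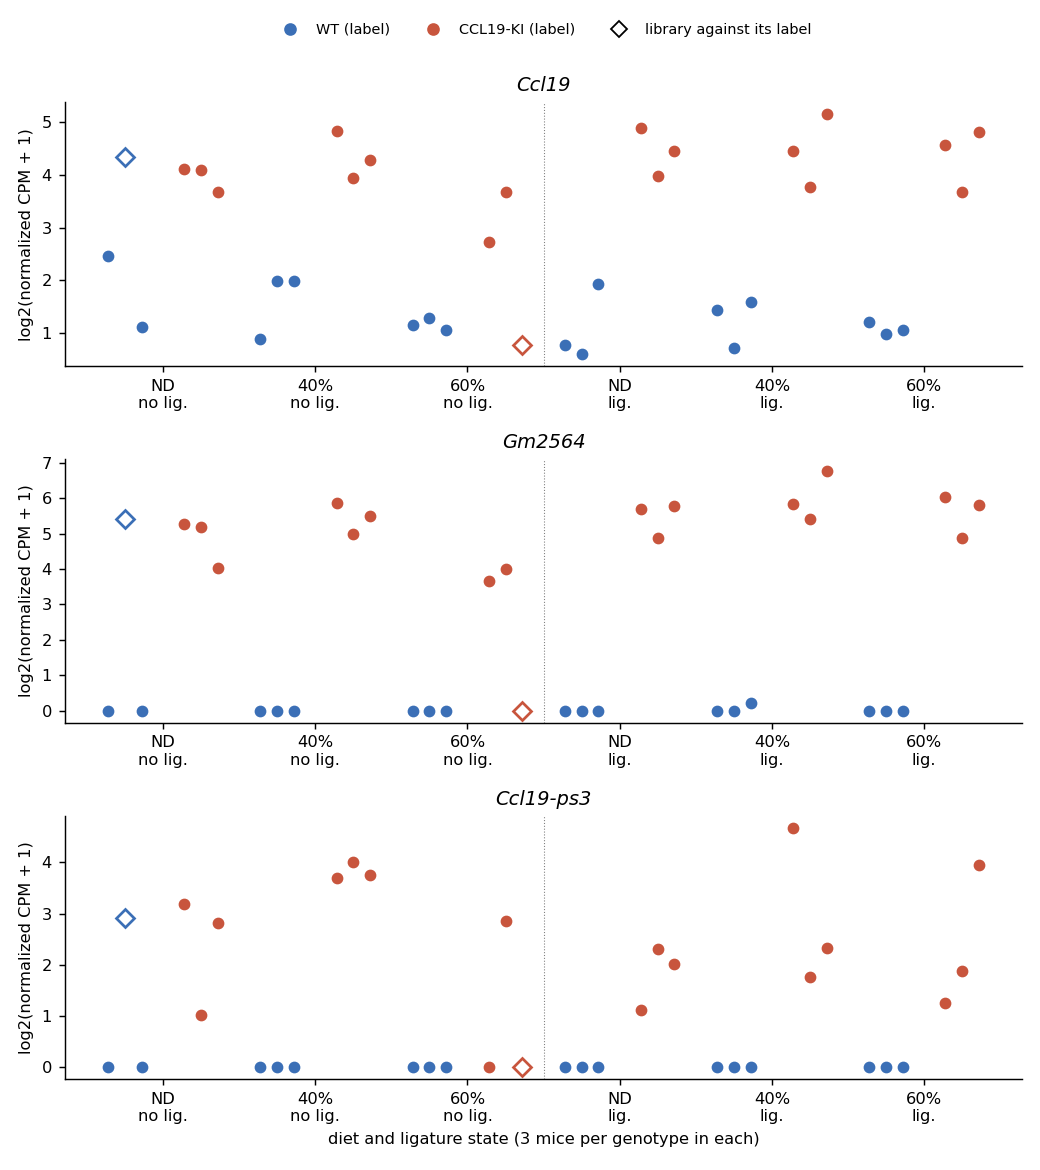
Expression of *Ccl19*, *Gm2564* and *Ccl19-ps3* in each of the 36 mice as log2(normalized CPM + 1) (y axis), by diet and ligature state (x axis), with WT in blue, CCL19-KI in red and the 2 libraries against their label as open diamonds. Outside the diamonds, *Gm2564* was at or near 0 in every WT mouse and at 11.6 normalized CPM or more in every CCL19-KI mouse.

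How the reads of the 3 genes were divided differed sharply between the genotypes. In the 17 CCL19-KI libraries that fit their label, the 3 genes together held 303 to 2005 reads (median 1193), of which *Gm2564* took 45.3 to 73.6% (median 60.6%), *Ccl19* 20.5 to 35.7% (median 27.6%) and *Ccl19-ps3* 0 to 24.9% (median 8.29%). In the 17 WT libraries that fit theirs, the sum was 10 to 83 reads, and 92.6 to 100% of it was assigned to *Ccl19*. The gene named *Ccl19* thus held the minority of the ligand reads in CCL19-KI mice and nearly all of them in WT mice. The library labelled WT, ND, replicate 2 divided its 1215 reads like the CCL19-KI libraries, with 62.0% in *Gm2564* and 28.4% in *Ccl19*. Per kb of exon, the median level in CCL19-KI mice was 58.4 normalized CPM for *Gm2564*, 18.9 for *Ccl19* and 12.4 for *Ccl19-ps3*, and in WT mice it was 1.39 for *Ccl19*.

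As the added gene stands in the *Adipoq* locus, the summed ligand reads were set against *Adipoq* (ENSMUSG00000022878, chr16:23146536-23158028). The sum was 5.74 to 12.8% of *Adipoq* in the 17 CCL19-KI libraries (median 10.0%) and 0.0165 to 0.215% in the 17 WT libraries. Without ligature, it was 10.7 to 12.0% on an ND, 8.62 to 12.8% on a 40% HFD and 5.74 to 7.93% on a 60% HFD (n = 2), and with ligature, 10.0 to 10.3%, 9.86 to 11.8% and 8.21 to 9.49%. On a 60% HFD, the ranges thus lay below those on an ND in both ligature states. The library labelled WT, ND, replicate 2 reached 9.00%, and the library labelled CCL19-KI, 60% HFD, replicate 3 reached 0.0627%. *Adipoq* itself was lower in CCL19-KI mice: with ligature, it was 822 ± 286 normalized CPM (SD, n = 9) against 2929 ± 760 in WT mice, which is -1.86 on the log2 scale (adjusted p = 5.32e-04, limma). Without ligature, it was 605 ± 309 against 1898 ± 774, or -1.65 on the log2 scale, which missed the threshold as labelled (adjusted p = 0.063, limma), and -2.02 without both libraries (adjusted p = 0.00235, limma, and 2.04e-05 to 0.0885 over the alternatives).

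**Figure D2:**
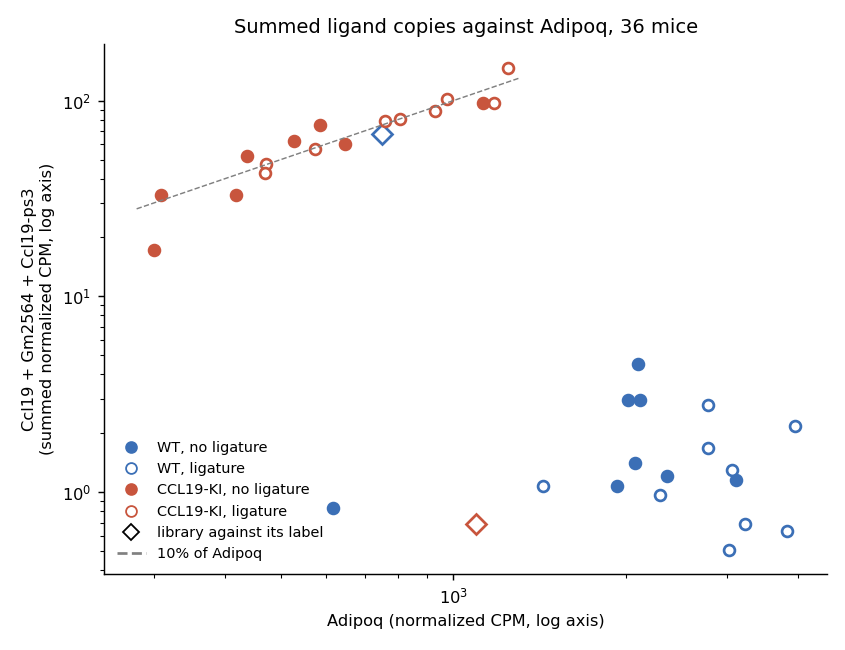
Summed *Ccl19*, *Gm2564* and *Ccl19-ps3* (y axis, normalized CPM, log scale) against *Adipoq* (x axis, normalized CPM, log scale) in the 36 mice, with filled symbols for no ligature, open symbols for ligature, diamonds for the 2 libraries against their label, and a dashed line at 10% of *Adipoq*. The 17 CCL19-KI libraries lie along the line, at 5.74 to 12.8%, and the 17 WT libraries lie at 0.0165 to 0.215%, with each diamond among the mice of the other genotype.

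Across the 18 CCL19-KI mice, Pearson's r of *Adipoq* with the ligand genes depended on 1 library. This library had been singled out by its ligand values, so r without it is a description. Pearson's r with *Ccl19* was 0.27 (permutation p = 0.295, adjusted over 14 correlations 0.375) and Spearman's rho was 0.69 (permutation p = 0.00223, adjusted 0.00446), and without the library labelled CCL19-KI, 60% HFD, replicate 3, r was 0.90. Within the 9 ligatured mice it was 0.90, and within the 9 unligatured mice -0.14, or 0.85 without that library. For *Gm2564*, r was 0.22 (adjusted p = 0.47, permutation) and rho 0.72 (adjusted p = 0.00288, permutation), with r = 0.91 without the library and 0.91 within the ligatured mice. Without the 2 mice farthest from the median of *Adipoq*, r was 0.05 for *Ccl19* and 0.04 for *Gm2564*, with the library against its label still included, so Pearson's r over all 18 mice rested on single libraries. After subtraction of the group means over all 18 mice, r was 0.02 for *Ccl19* and -0.17 for *Gm2564*. With the mean of the adipocyte list (*Plin1*, *Fabp4*, *Lep* and others) in place of *Adipoq*, r was 0.52 for *Ccl19* (adjusted p = 0.0435, permutation) and 0.53 for *Gm2564* (adjusted p = 0.0426, permutation), with rho 0.74 (adjusted p = 0.00252, permutation) and 0.86 (adjusted p = 0.00021, permutation). Without the 2 mice farthest from the median of the adipocyte list, r was 0.47 for each, and after subtraction of the group means it was 0.22 and 0.10. Within the ligatured mice, r was 0.72 and 0.85, and within the unligatured mice 0.30 and 0.27, or 0.78 and 0.82 without the library labelled CCL19-KI, 60% HFD, replicate 3. Over the 17 mice without this library, r was 0.80 and 0.88.

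The genotype effect was tested across all genes, first as the average over the 3 diets. In unligatured mice as labelled, none of the 5 members passed (0 of 5, against 0.0118% of the 16923 genes tested), although the ligand gene and both copies had an unadjusted p under 0.05 in limma, and edgeR called none of the 5 either. The log2 fold change of CCL19-KI against WT was 1.77 for *Ccl19* (95% CI 0.88 to 2.66, adjusted p = 0.0795, limma), 3.67 for *Gm2564* (95% CI 2.20 to 5.15, adjusted p = 0.0582, limma) and 2.05 for *Ccl19-ps3* (95% CI 1.05 to 3.04, adjusted p = 0.0726, limma). Without both libraries against their label, 3 of the 5 passed, in an analysis that called 7.77% of 16451 genes. As the ligand genes had singled out these libraries, these passes are a description and not a test of the genotype effect. *Ccl19* then had 2.32 (95% CI 1.78 to 2.86, adjusted p = 8.84e-04, limma, and 7.8e-05 to 0.103 over the alternatives) and *Gm2564* 4.70 (adjusted p = 2.02e-08, limma, and 2.02e-08 to 0.0963). *Ccl19-ps3* had 2.53 (adjusted p = 0.00409, limma, and 1.04e-04 to 0.128). Leaving out either of these libraries alone also brought all 3 past the threshold, and leaving out any other mouse did not.

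In ligatured mice, 3 of the 5 passed, against 0.396% of the 16653 genes tested. *Ccl19* had a log2 fold change of 3.29 (95% CI 2.77 to 3.80, adjusted p = 5.1e-06, limma), *Gm2564* 5.65 (95% CI 5.24 to 6.06, adjusted p = 3.12e-10, limma) and *Ccl19-ps3* 2.36 (95% CI 1.54 to 3.19, adjusted p = 0.0131, limma). Fold changes are on the scale of log2(normalized CPM + 1), which understates those of genes near 0. For *Ccl19-ps3*, the call was lost with a pseudocount of 5 (adjusted p = 0.139, limma, and 4.1e-05 to 0.139 over the alternatives).

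**Figure D3:**
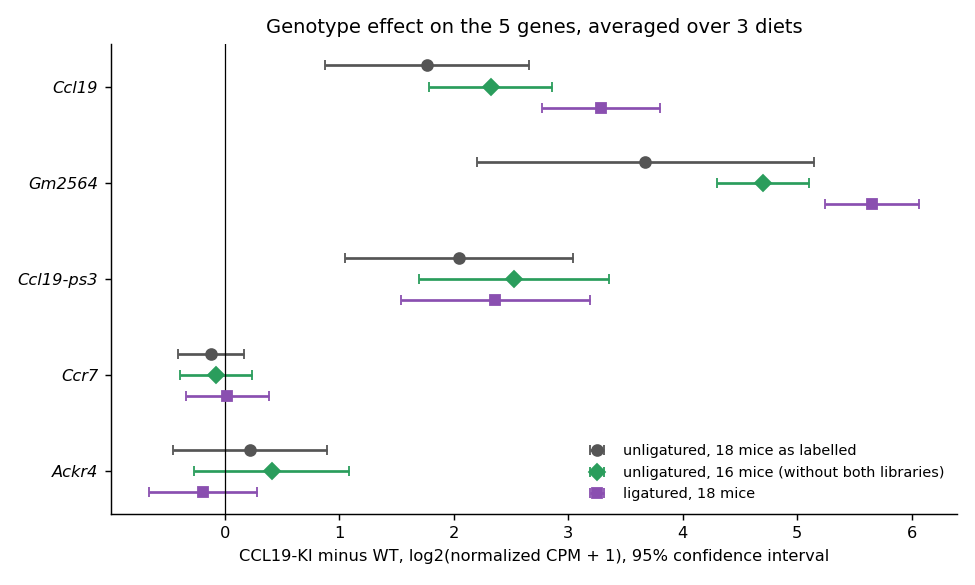
Difference between CCL19-KI and WT mice in log2(normalized CPM + 1), averaged over 3 diets (x axis, points, with 95% confidence intervals as bars), for the 5 genes (y axis) in unligatured mice as labelled (circles), without both libraries against their label (diamonds) and in ligatured mice (squares). The intervals of the 3 ligand genes lie above 0 and those of *Ccr7* and *Ackr4* include 0.

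Under single diets without ligature, as labelled, no member passed in limma or edgeR on an ND (where 7.28% of all genes tested did in limma), a 40% HFD (0%) or a 60% HFD (4.06%), and 1, 3 and 1 of the 5 had an unadjusted p under 0.05 in limma. On a 40% HFD, where no library was against its label, limma and edgeR both called 0 genes in all, with 723 genes at an unadjusted p under 0.05 in limma. *Ccl19* had a log2 fold change of 2.74 and *Gm2564* of 5.45 there, and all 3 CCL19-KI mice were above all 3 WT mice for both, as for *Ccl19-ps3*. The exact two-sided permutation test of 3 mice with 3 others has a smallest possible p of 0.1, the value it gave for each of these genes under this diet and under every diet in ligatured mice. On an ND, the exact test gave p = 0.4 for *Ccl19* and *Gm2564* and p = 0.3 for *Ccl19-ps3*, and on a 60% HFD, p = 0.4, 0.4 and 1.0. Without both libraries, 3 members passed on an ND (11.8% of all genes), 2 on a 40% HFD (0.0365%) and 2 on a 60% HFD (3.82%), in each case *Ccl19* and *Gm2564*, joined on an ND by *Ccl19-ps3*. These passes too are a description. On a 40% HFD no mouse was left out and the fold changes were the same, so only the shared estimate of the spread and the genes tested had changed. Hepatocyte genes differed between the same groups. In limma, 8 of the 9 on the list were higher in CCL19-KI mice on an ND. On a 60% HFD, 8 of the 9 were lower as labelled, and 0 of 9 passed without both libraries. The mean log2 value of the list was still lower in the 2 CCL19-KI mice left (5.47 and 6.19) than in the WT mice (9.00, 10.5 and 11.1). Over the 12 lists of cell types and tissues, edgeR called 6 genes lower under this diet as labelled, and 3 higher and 1 lower without both. Of the 11 adipocyte genes, 4 were lower in CCL19-KI mice on an ND. Their part in these comparisons was not tested.

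*Ccr7*, the signalling receptor of CCL19, was near the limit of detection in eWAT. Over the 36 libraries, it had 3 to 39 reads (median 20) and reached 1 normalized CPM in 22. In unligatured WT mice, it was 1.85, 1.45 and 0.800 normalized CPM on an ND, 1.65, 1.54 and 0.682 on a 40% HFD, and 1.54, 1.58 and 0.998 on a 60% HFD. In unligatured CCL19-KI mice, it was 0.991, 0.864 and 1.47 on an ND, 0.851, 0.468 and 0.815 on a 40% HFD, and 2.22, 1.59 and 1.33 on a 60% HFD. The genotypes overlapped under every diet. The 3 CCL19-KI mice fed a 40% HFD were low, with 14, 7 and 13 reads, and the 3 fed a 60% HFD were high, with 39, 22 and 27, but each of these groups held values that WT mice on the same diet also reached.

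In ligatured mice, *Ccr7* was 0.207, 0.608 and 0.851 normalized CPM in WT mice on an ND, 1.90, 1.77 and 0.642 on a 40% HFD, and 1.30, 1.20 and 1.52 on a 60% HFD. In CCL19-KI mice, it was 1.64, 1.35 and 0.306, then 1.13, 1.41 and 0.365, and 1.62, 1.22 and 1.12 under these diets. The lowest value of all, 3 reads, was in a WT mouse on an ND, and 1 CCL19-KI mouse under that diet was nearly as low, so these groups overlapped too. The group means ranged from 0.555 ± 0.325 (SD, n = 3; ligatured WT mice, ND) to 1.71 ± 0.458 (unligatured CCL19-KI mice, 60% HFD). With the 12 groups in order of their mean, the ranges of all 11 pairs of neighbours overlapped. The same held for *Ccl19*, *Gm2564* and *Ccl19-ps3*, so this overlap does not tell whether groups differ.

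*Ackr4*, which takes up CCL19 and CCL21, had more reads than *Ccr7*, 93 to 599 in each library. In unligatured WT mice, it was 15.1, 15.3 and 12.6 normalized CPM on an ND, 6.99, 20.7 and 26.5 on a 40% HFD, and 11.5, 13.8 and 9.45 on a 60% HFD. In unligatured CCL19-KI mice, it was 23.5, 10.2 and 13.4 on an ND, 16.2, 7.76 and 30.2 on a 40% HFD, and 34.0, 20.4 and 8.10 on a 60% HFD. Mice of 1 group thus differed by up to several fold, and no group lay apart. On a 60% HFD, the lowest CCL19-KI value belonged to the library against its label, and the other 2 exceeded those of the 3 WT mice.

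In ligatured mice, *Ackr4* was 12.8, 20.5 and 13.2 normalized CPM in WT mice on an ND, 24.3, 7.53 and 8.50 on a 40% HFD, and 10.4, 12.4 and 9.53 on a 60% HFD. In CCL19-KI mice, it was 11.1, 15.5 and 21.4, then 8.95, 9.26 and 9.36, and 5.59, 7.71 and 15.0. The genotypes overlapped under each diet here as well. The lowest group mean was 9.19 ± 0.212 (SD, n = 3; ligatured CCL19-KI mice, 40% HFD), the group whose mice differed least, and the highest was 20.8 ± 13.0 (unligatured CCL19-KI mice, 60% HFD). In the order of the 12 means, all 11 neighbouring pairs overlapped in range, as they did for every member, the ligand genes included. Per kb of exon, the median over the 36 libraries was 2.36 normalized CPM for *Ackr4* and 0.636 for *Ccr7*.

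**Figure D4:**
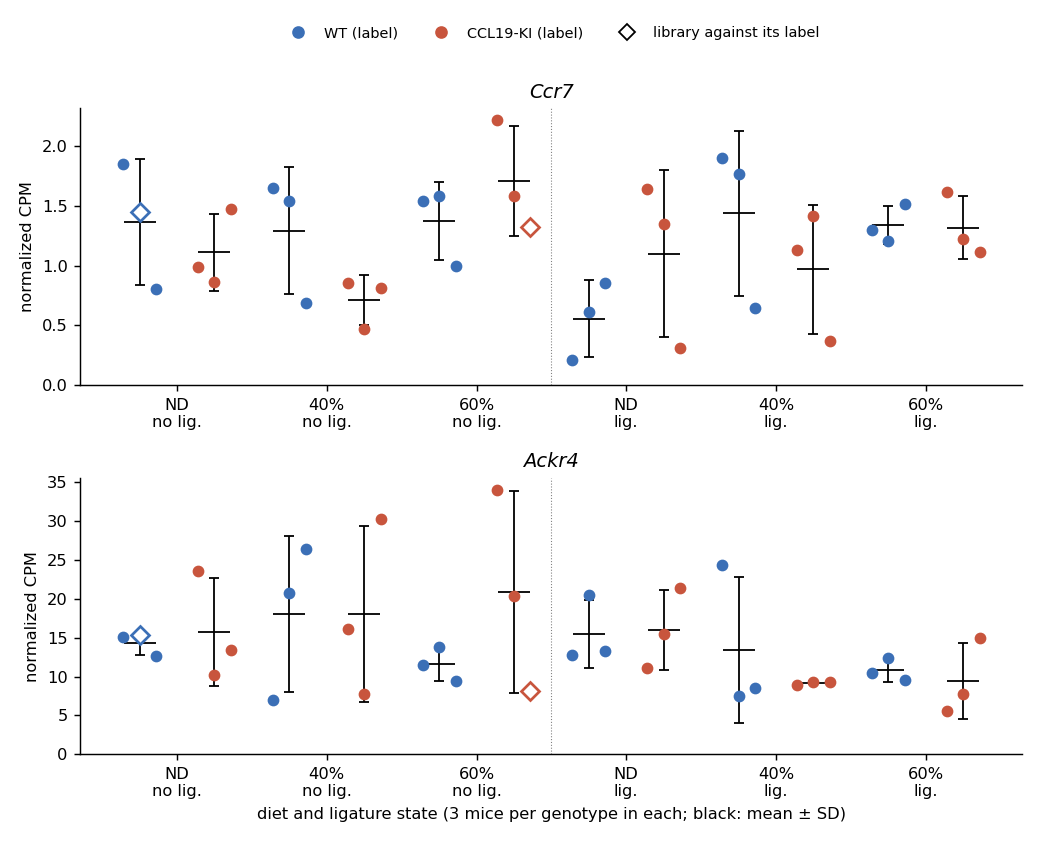
*Ccr7* and *Ackr4* in each of the 36 mice in normalized CPM (y axis), by diet and ligature state (x axis), with WT in blue, CCL19-KI in red, the 2 libraries against their label as open diamonds and the mean ± SD of 3 mice in black. WT and CCL19-KI mice overlap in each of the 6 comparisons of either receptor.

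No genotype effect on either receptor passed the test, by limma or edgeR, and with all mice as labelled neither receptor had an unadjusted p under 0.05. In unligatured mice, the mean of *Ccr7* over CCL19-KI mice was 1.18 ± 0.528 normalized CPM (SD, n = 9) and that over WT mice 1.34 ± 0.411, which gave a log2 fold change of -0.12 (95% CI -0.41 to 0.17, adjusted p = 0.71, limma), and -0.07 (95% CI -0.39 to 0.24) without both libraries. For *Ackr4*, the means were 18.2 ± 9.56 and 14.6 ± 5.89, with a log2 fold change of 0.22 (95% CI -0.45 to 0.89, adjusted p = 0.78, limma), and 0.41 (95% CI -0.27 to 1.09) without both. In ligatured mice, it was 0.02 for *Ccr7* (95% CI -0.34 to 0.39, adjusted p = 0.974, limma) and -0.19 for *Ackr4* (95% CI -0.66 to 0.28, adjusted p = 0.809, limma). The intervals bound the average effect on *Ccr7* within 0.41 on this log2 scale in either state of ligature, while for *Ackr4* the upper bound in unligatured mice without both libraries was 1.09. As the scale is log2(normalized CPM + 1), it understates fold changes of a gene as low as *Ccr7*. The bound on the fold of *Ccr7* itself is therefore wider. These intervals do not show that the receptors were alike in the genotypes.

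Under single diets without ligature, as labelled, the log2 fold change of *Ccr7* was -0.15 on an ND, -0.40 on a 40% HFD and 0.19 on a 60% HFD, and that of *Ackr4* was 0.05, -0.01 and 0.61. None passed, and the 95% CI of each included 0. Without both libraries, *Ackr4* on a 60% HFD had 1.14 (95% CI -0.08 to 2.36, adjusted p = 0.197, limma, and 0.144 to 0.556 over the alternatives). By edgeR without both libraries, 1 of the 2 receptors had an unadjusted p under 0.05 under this diet, and 0 passed. Exact permutation tests of 3 mice against 3 gave p between 0.3 and 0.9 for *Ccr7* and between 0.4 and 1.0 for *Ackr4* over the 6 combinations of diet and ligature.

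Diet and ligature were examined next. No member passed in the contrast of the 40% HFD with the ND (0.756% of genes did) or of the 60% HFD with the ND (0.0118%) in unligatured mice, averaged over genotypes. On a 60% HFD, *Ccl19* had a log2 fold change of -1.53 and *Gm2564* of -2.04 as labelled, both with an adjusted p of 0.969 (limma), and -0.70 and -0.50 without both libraries. *Ccr7* had -0.17 on a 40% HFD and 0.19 on a 60% HFD, and *Ackr4* had 0.11 and -0.02, the last of which was positive without both libraries (0.27). No member passed the test of whether the genotype effect differed by diet, in which 0.0236% of genes passed for the 40% HFD against the ND and 8.61% for the 60% HFD. In these tests, *Ccr7* had -0.25 and 0.34, and *Ackr4* -0.06 and 0.56. In these 4 comparisons, limma called 0 members and edgeR 0, with at most 2 of 5 at an unadjusted p under 0.05 in either. Without both libraries, no member passed either, where 0.0669% and 0% of genes passed for the diets and 0% and 4.1% for the tests of the difference. Of the 9 hepatocyte genes, 8 were higher on a 40% HFD than on an ND as labelled in limma, and 1 without both libraries. This loss depended on the tool, since over the 12 lists of cell types and tissues edgeR called 8 genes higher as labelled and 7 without both. Their part was not tested.

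The ligature effect, averaged over diets and genotypes in all 36 mice, passed for none of the 5 members (0.325% of 17852 genes did, and 0.358% without both libraries), by limma or by edgeR, and none had an unadjusted p under 0.05 as labelled. It was 0.09 for *Ccl19* (95% CI -0.42 to 0.60), -0.11 for *Ccr7* (95% CI -0.33 to 0.11) and -0.34 for *Ackr4* (95% CI -0.75 to 0.07) on the log2 scale, and without both libraries, -0.42 for *Ackr4* (95% CI -0.82 to -0.02, adjusted p = 0.293, limma, and 0.133 to 0.471 over the alternatives). The genotype effect on *Ccl19* was larger in ligatured than in unligatured mice by 1.52 as labelled (95% CI 0.49 to 2.54, adjusted p = 0.337, limma) and by 0.96 without both libraries (adjusted p = 0.156, limma, and 0.0746 to 0.392 over the alternatives). No member passed this test in limma or edgeR (0.0056% of genes did in limma, and 0.421% without both libraries), and 2 of 5 had an unadjusted p under 0.05 in limma. For *Ccr7* the difference was 0.15, and for *Ackr4* -0.41.

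Whether the receptors followed the ligand was examined across the 18 CCL19-KI mice. For *Ccr7*, r was -0.38 with *Ccl19* (rho -0.38) and -0.39 with *Gm2564* (rho -0.41), with an adjusted permutation p of 0.165 for each r and of 0.156 and 0.136 for rho. Without the 2 mice farthest from the median of the ligand gene, r was -0.33 and -0.44. Without the library against its label, r was -0.51 and -0.57 over 17 mice, and within the unligatured mice it was -0.76 and -0.82, against -0.49 and -0.48 with it. Within the ligatured mice, r was -0.35 and -0.50, and after subtraction of the group means over all 18 mice, it was -0.03 for each. For *Ackr4*, r was 0.00 with *Ccl19* (rho 0.05) and -0.01 with *Gm2564* (rho -0.13), with an adjusted permutation p of 0.985 for each r. Without the 2 mice farthest from the median of the ligand gene, r was -0.04 and -0.21. Values near 0 depended on the library against its label, since without it r was -0.32 and -0.40 over 17 mice. Within the unligatured mice, r was 0.27 and 0.34 with this library and -0.32 and -0.21 without it, and within the ligatured mice 0.10 and -0.14. After subtraction of the group means over all 18 mice, it was 0.45 and 0.55. The mice share depth and composition, and *Ccr7* rests on few reads. The values without the library were not tested.

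The receptors were also set against markers of the cells known to carry them, over all 36 mice. With the mean log2 value of 14 T cell genes (*Cd3d*, *Cd3e*, *Lck* and others), *Ccr7* had r = 0.58 (permutation p = 2.7e-04, adjusted 0.00189) and rho = 0.58 (adjusted p = 0.00159, permutation). This r was 0.53 in unligatured and 0.61 in ligatured mice, 0.59 without the 2 mice farthest from the median of the list, and 0.51 after each of the 12 group means had been subtracted. With the dendritic cell list, *Ccr7* had r = 0.52 (adjusted p = 0.00527, permutation; rho 0.51), 0.33 in unligatured and 0.74 in ligatured mice and 0.41 without the 2 farthest mice. The list for mature dendritic cells, which carry CCR7 to lymph nodes, gave r = 0.45 (adjusted p = 0.0213, permutation; rho 0.37), and the B cell list gave 0.28 (adjusted p = 0.165, permutation; rho 0.22). The summed T cell list was 17.4 to 47.5 normalized CPM in WT and 17.4 to 75.3 in CCL19-KI mice without ligature, and 14.8 to 50.7 and 13.7 to 47.7 with ligature, so the genotypes overlapped.

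*Ackr4* followed the list of fibroblasts and progenitors (*Pdgfra*, *Dpp4*, *Pi16* and others), with r = 0.67 (permutation p = 2e-05, adjusted 2.8e-04) and rho = 0.64 (adjusted p = 2.1e-04, permutation). The relation was closer in unligatured mice (r = 0.89) than in ligatured mice (r = 0.43), a difference that was not tested, and it was 0.64 without the 2 farthest mice and 0.73 after subtraction of the group means. With the lymphatic endothelium list, r was 0.34 (adjusted p = 0.0878, permutation; rho 0.37). Without both libraries against their label, over 34 mice, r was 0.58, 0.55, 0.48 and 0.30 for *Ccr7* with the lists of T cells, dendritic cells, mature dendritic cells and B cells, and 0.66 and 0.30 for *Ackr4* with those of fibroblasts and progenitors and of lymphatic endothelium. These relations are across whole tissue samples and do not place the reads of either receptor in a cell type.

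**Figure D5:**
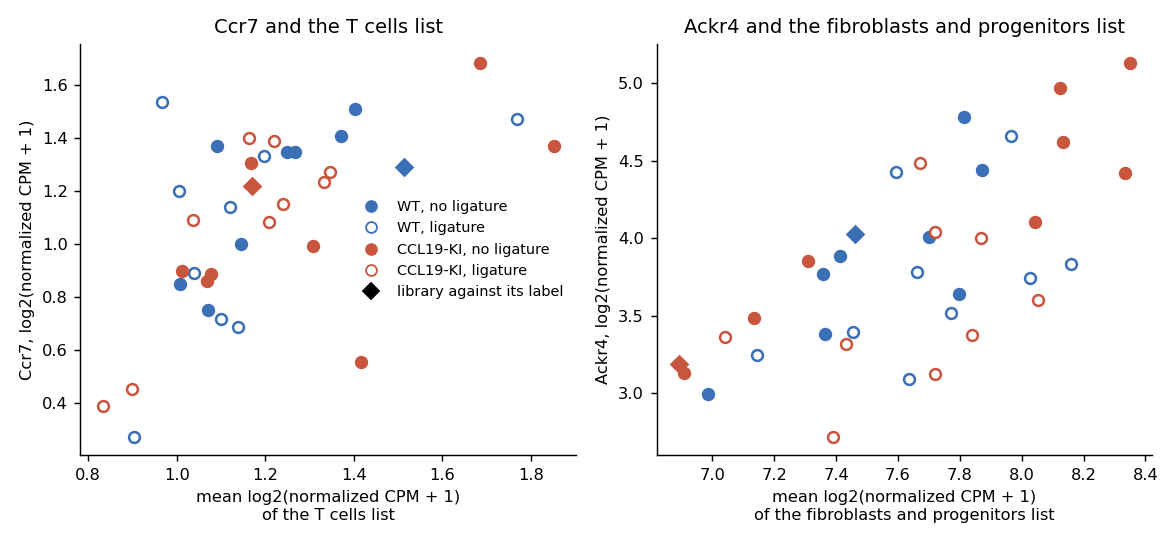
Left, *Ccr7* against the mean of the T cell list, and right, *Ackr4* against the mean of the list of fibroblasts and progenitors, each as log2(normalized CPM + 1) on both axes, in 36 mice (filled, no ligature; open, ligature; diamonds, libraries against their label). Both relations are positive, with r = 0.58 and r = 0.67, and mice of each genotype lie across the range.

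Other genes of the same chemokine axis were taken from lists of ligands, related receptors and signalling genes. Of 25 listed genes, 20 were in the table and 19 were tested, and by limma as by edgeR, 0 of 19 passed in the genotype effect of unligatured mice, as labelled or without both libraries, in that of ligatured mice, or in the ligature effect. In limma, 3, 5, 3 and 1 of them had an unadjusted p under 0.05 in these comparisons, beside 2588 of 16923, 4231 of 16451, 1811 of 16653 and 2885 of 17852 genes in all. Over unligatured mice as labelled, the median log2 fold change was 0.50 for the 3 other ligands, 0.09 for the 6 related receptors and -0.18 for the 10 signalling genes, against -0.04 over all genes tested. *Ccl21a* and *Ccl21b*, which encode the other ligand of CCR7, ranged from 0 to 151 (median 8.27) and from 0 to 68.8 (median 3.04) normalized CPM over the 36 mice. The highest values of *Ccl21a*, 89.8 and 151, were in CCL19-KI replicates 1 and 2 on a 60% HFD without ligature. For *Ccl21b*, replicate 2 was also the highest, at 68.8, followed by a WT mouse on a 40% HFD without ligature (35.2) and by replicate 1 (34.6). On an ND without ligature, 3 of the 19 passed in limma as labelled, beside 7.28% of all genes, and 1 in edgeR. *Ccr9*, the receptor of CCL25, had 0.82 on the log2 scale (adjusted p = 0.0408, limma), *Gnai2*, a G protein subunit through which chemokine receptors signal, -0.77 (adjusted p = 0.0495, limma), and *Grk3*, a kinase that phosphorylates such receptors, -0.84 (adjusted p = 0.0396, limma). *Grk3* also passed in the test of the difference between the 60% HFD and the ND (1.13, adjusted p = 0.0392, limma), beside 8.61% of all genes. Without both libraries, *Ccr9*, *Gnai2*, *Arrb1*, *Dock2* and *Rhoa* passed on an ND in limma, beside 11.8% of all genes, and *Grk3* did not. By edgeR without both, 1 of the 19 passed as higher and 1 as lower in CCL19-KI mice on an ND. *Ccl21a* and *Ccl21b* are themselves members of a family of near-identical copies, so the level of each is uncertain.

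Of the 12 lists of cell types and tissues, 0 of 97 genes tested passed in the genotype effect of unligatured mice as labelled by limma or edgeR, with 8 at an unadjusted p under 0.05 in limma. Without both libraries, 2 of 96 passed in limma, a smaller share than the 7.77% of all genes that passed in that comparison. They were *Pparg*, the master regulator of adipocyte differentiation, with -0.73 on the log2 scale (adjusted p = 0.0342, limma, and 1.11e-04 to 0.33 over the alternatives), and *Ltbr*, the lymphotoxin beta receptor of lymphoid stroma, with -0.49 (adjusted p = 0.0115, limma, and 2.16e-04 to 0.216). These were the only genes of the adipocyte list (1 of 11) and of the lymph node stroma list (1 of 5 tested) to do so. Under single diets as labelled, *Pparg* had -1.32 on an ND, 0.40 on a 40% HFD and -0.87 on a 60% HFD. Its average thus joins effects of opposite sign. *Ltbr* had -0.68, -0.17 and -0.33.

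The genes whose pattern was most like that of each member were ranked by Pearson's r over the 36 libraries among 17847 genes. For *Ccl19*, they were *Hist1h4m* (r = 0.91), *Naip6* (0.82), *Gm16867* (0.81), *Fgfbp3* (0.76) and *Gm21451* (0.73), while 95% of all genes had an r below 0.34. For *Ccr7*, they were *Arpc2* (0.71), *Bin2* (0.66), *Grap2* (0.66), *Asf1b* (0.66) and *Csf3r* (0.65), with 95% of genes below 0.38. For *Ackr4*, they were *Mfap4* (0.83), *Itgbl1* (0.83), *Col8a2* (0.83), *Sfrp1* (0.79) and *Cpxm2* (0.79), with 95% of genes below 0.46. *Mfap4* and *Col8a2* encode proteins of the extracellular matrix, and *Grap2* an adaptor protein of T cell receptor signalling. As r was computed over all 36 mice, it holds the differences between groups as well as those between mice.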

How the data were processed

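Per the labels and methods, directional rRNA-depleted libraries of eWAT were sequenced, and the authors trimmed the reads (Trimmomatic 0.38), quantified genes with RSEM 1.3.0 and Bowtie2, and deposited a signal per gene, edgeR-normalized CPM. The methods name mm10 and the submitters' processing notes GRCm39. Gene symbols and sequences were taken from GENCODE M21 (GRCm38), which holds 24634 of the 24750 gene IDs. The counts were abundance estimates by RSEM, and the sources used here do not state how reads shared by copies were divided. The recovered reads of *Ccl19* and its copies are therefore estimates. The column sums were 799716 to 1208061.

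Genes with at least 1 in at least 3 libraries of a fit were tested on log2(normalized CPM + 1) with limma 3.58.1 (R 4.3.3), with group means and an intensity trend, in the 18 unligatured, the 18 ligatured or all 36 mice. Benjamini-Hochberg adjustment covered every gene of a fit, and a gene passed at an adjusted p under 0.05. This test was chosen because the deposited values are not counts, and edgeR 4.0.16 (quasi-likelihood) on the recovered reads (tolerance 0.01 read) was an alternative. Whole multiples gave 100% of the values. Correlations used 100000 permutations. The procedure was tested on simulated data. Tables were made with Python 3.11.15, pandas 2.3.3 and scipy 1.17.1. Whether mice came from separate cages or litters is not given.

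The members, the gene lists and the rule for naming genes (the members, *Adipoq*, the genes of the chemokine axis, genes of other lists that passed in the unligatured genotype contrast, and the 5 genes most like *Ccl19*, *Ccr7* and *Ackr4*) were chosen with earlier results of these data known.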

Additional observations from a re-analysis of the deposited data

How the results depend on the processing

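All 5 members in all comparisons gave 697 values under alternatives other than leaving out a mouse, of which 625 kept their direction and their side of the threshold and 72 did not. Both receptors gave 631 values with mice left out included, of which 591 did and 40 did not, and in these *Ackr4* passed once. The alternatives without both libraries against their label were chosen after seeing the data. The cause of a change was not tested, except that the ligand changes without these libraries follow from how they were singled out. The edgeR fold changes of genes at 0 in a group depend on the prior count. *Ccr7* (3 to 39 reads) is limited by depth. The robust fit, no filter, the stricter filter on low values (which left *Ccl19-ps3* tested in ligatured mice alone) and rescaling by median-of-ratios changed no member's call or direction. The sum of the ligand genes already held every symbol in the data that begins with Ccl19, so widening it to these symbols could not change it. Copies under other names were not searched for.

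Of the genotype effects in unligatured mice averaged over diets (log2), those of the ligand genes passed without both libraries (*Ccl19* 2.32, *Gm2564* 4.70, *Ccl19-ps3* 2.53), by edgeR without both (2.84, 11.7 and 9.58), with the spread of all 36 mice (1.77, 3.67 and 2.05) and with sample quality weights (2.18, 4.31 and 2.62). On an ND, they passed without both (2.18, 4.83 and 2.34) and with weights (2.13, 3.85 and 1.91), *Ccl19* (2.46) and *Gm2564* (11.9) by edgeR without both, and *Gm2564* (3.02) with all 36 mice. On a 60% HFD, *Ccl19* and *Gm2564* passed without both (2.04 and 3.83), by edgeR without both (2.88 and 10.8) and with weights (2.03 and 3.60, and *Ccl19-ps3* 2.17). On a 40% HFD, *Gm2564* passed without both, with all 36 mice and with only its 2 groups (5.45 each), by edgeR without both (12.5) and with weights (5.49), *Ccl19* without both (2.74) and with weights (2.38), and *Ccl19-ps3* with 2 groups (3.82) and weights (3.77). In ligatured mice, *Ccl19-ps3* (0.97) missed the threshold with a pseudocount of 5.

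Of the receptors, *Ackr4* passed in the 40% HFD effect with weights (0.86, adjusted p = 0.0264, limma; 0.0264 to 0.999 over its alternatives). The sign of effects that did not pass turned for *Ackr4* in the 60% HFD effect (edgeR 0.061, edgeR without both 0.29, pseudocount of 5 0.0023, weights 0.32, without both 0.27), in the genotype effect on a 40% HFD (edgeR 0.053, edgeR without both 0.042, quantile normalization 0.056) and on an ND (weights -0.079). For *Ccr7* it turned with weights in the genotype effect over diets (0.080), on an ND (0.14) and on a 40% HFD (0.024) and in its difference between the 60% HFD and the ND (-0.072), and with quantile normalization in ligatured mice (-0.046) and on a 60% HFD (-0.0020).

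Of ligand effects that did not pass, the sign turned in the 40% HFD effect for *Ccl19* (edgeR without both 0.073, weights 0.38, without both 0.11), *Gm2564* (0.29, 0.22 and 0.31) and *Ccl19-ps3* (edgeR -3.37, pseudocount of 0.1 -0.12). It turned in the difference of the genotype effect between the 60% HFD and the ND for *Ccl19* (edgeR 1.41, edgeR without both 0.42), *Gm2564* (edgeR 9.07) and *Ccl19-ps3* (edgeR 6.83, weights 0.26). It turned in the ligature effect by edgeR for *Ccl19* (-0.15) and *Gm2564* (-0.70), and in genotype by ligature for *Ccl19-ps3* (edgeR without both -0.082, without both -0.16). *Ccl19-ps3* (1.87) passed in the difference between the 40% HFD and the ND with weights.

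With each mouse left out in turn, the genotype effect over diets without ligature was 1.51 to 2.05 for *Ccl19*, 3.37 to 4.28 for *Gm2564* and 1.73 to 2.37 for *Ccl19-ps3*, past the threshold only when either library against its label was the one left out, and on an ND it was 2.11 to 4.83 for *Gm2564* and -0.26 to 0.30 for *Ackr4*. For *Ackr4* it was -0.54 to 0.46 on a 40% HFD, its 40% HFD effect was -0.11 to 0.38, its 60% HFD effect -0.24 to 0.25 and its genotype by 40% HFD difference -0.60 to 0.41. The genotype effect on *Ccr7* in ligatured mice was -0.064 to 0.13. The 40% HFD effect was -0.70 to 0.11 for *Ccl19*, -1.04 to 0.31 for *Gm2564* and -0.077 to 0.74 for *Ccl19-ps3*, and the genotype by 60% HFD difference was -0.95 to 0.71, -2.27 to 0.81 and -1.38 to 0.070. The ligature effect on *Ccl19* was -0.043 to 0.23, and genotype by ligature for *Ccl19-ps3* was -0.0052 to 0.64.

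Mice with the same replicate number did not in general deviate together (median correlation -0.0153 over 198 pairs, from -0.663 to 0.710, 73 of them over 0.1). For mice with different numbers, the median was 0.0172 over 396 pairs, 151 of them over 0.1. The numbers were therefore not used to pair the mice, though these medians cannot exclude that some mice shared a cage or litter. With the replicate block, no member's call changed, *Ccl19* had 1.77 and *Gm2564* 3.67 in unligatured mice over diets, and 1 gene was called in place of 2.

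The number of genes called depended on the setting, with the highest number always under sample quality weights. It was 2 in unligatured mice over diets (0 to 5765, edgeR 69), 1232 on an ND (0 to 8380), 0 on a 40% HFD (0 to 1373), 687 on a 60% HFD (0 to 4843), 66 in ligatured mice (23 to 1753), 58 for ligature (22 to 2258), 1 for genotype by ligature (0 to 1517), 128 and 2 for the diets (6 to 2911 and 0 to 649) and 4 and 1457 for genotype by diet (0 to 6796 and 561 to 7848).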
